A study of Ovis aries with 12 samples.

Results

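The cytosolic ribosomal protein genes of a fetal skeletal muscle were followed across 12 microarrays, 6 from fetuses of vehicle-treated ewes and 6 from fetuses of ewes infused with cortisol. Members were all non-control probes whose name on the array began with RPL, RPS or RPLP and a digit, or was RPSA, leaving out the RPS6K kinases and the mitochondrial ribosomal proteins. The rule found 15 of 15008 probes, and these stood for 8 of the 993 genes that could be given a name. The large subunit had 8 probes for 5 genes (RPL4, RPL6, RPL10, RPL13A and RPL14), and the small subunit had 7 probes for 3 genes (RPS20, RPS25 and RPS27A). A further 23 probes for 16 ribosomal protein genes carried other names on the array, and they are described after the members.

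The muscle was the biceps femoris of the hind limb of fetal sheep (Ovis aries). Ewes carrying a single fetus received either vehicle (the control group) or cortisol, as Solu-Cortef, at 1 mg/kg/day by continuous infusion from about day 115 of pregnancy to necropsy on day 139 to 144, soon after labour began. The labels give the arrays as 140 days of gestation. They count 7 ewes per arm, and 6 arrays per arm, numbered as replicates, are analysed here. The hormone was given to the mother, so what reached the fetal muscle is not stated by the labels. The treatment text of the labels speaks of left ventricular tissue, whereas title, description and tissue label all name the biceps femoris. Both MYOD1 and MYOG, muscle transcription factors, were detected on all 12 arrays, and MYF5 on 8 of 12. By name, 7 of 16 listed skeletal muscle markers were measured. Of the 11 listed heart muscle markers 0 could be matched to an array name, so heart tissue was not checked.

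A cytosolic ribosome is built from a large and a small subunit, each an RNA core covered with proteins that are needed in equal amounts. The genes for these proteins are therefore transcribed at high and closely matched levels, and translation of their messages is tuned as a group through the mTOR pathway. In skeletal muscle, ribosome number is a main determinant of protein synthesis, and glucocorticoids are known to restrain muscle protein synthesis and raise protein breakdown.

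Each value is the log2 of the spot's background-subtracted signal minus the 75th percentile of its array, so 0 is the brightness of that percentile and 1 unit is a doubling. Across the arrays that percentile lay between 187.3 and 446.8 intensity units, 66.4% to 76.0% of probes were well above background, and no non-control spot was saturated. Probes well above background on at least 6 arrays were tested, which kept 10734 probes and removed 4274. Brightness depends on the probe as well as on the message, so levels are compared between arrays for the same probe, never between genes. In whole muscle, fewer cells of a type and less RNA per cell cannot be told apart. The labels number the replicates without saying outright that each is a separate fetus, so p-values measure the spread between these samples.

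Several members are printed here because they read the same stretch of message, which gives repeat measurements of a gene on the same array. The 3 RPL10 probes share 42 bases, shown in capitals.

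RPL10 probe 1: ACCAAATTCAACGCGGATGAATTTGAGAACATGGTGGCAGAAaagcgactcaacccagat
RPL10 probe 2: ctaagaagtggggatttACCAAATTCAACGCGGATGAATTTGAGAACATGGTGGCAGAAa
RPL10 probe 3: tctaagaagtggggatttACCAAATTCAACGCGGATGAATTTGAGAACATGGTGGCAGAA

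The 2 probes of RPL14 and the 2 of RPS27A are each shifted by 1 base and share 59 bases, in capitals.

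RPL14 probe 1: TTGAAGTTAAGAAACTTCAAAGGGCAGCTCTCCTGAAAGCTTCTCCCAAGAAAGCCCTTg
RPL14 probe 2: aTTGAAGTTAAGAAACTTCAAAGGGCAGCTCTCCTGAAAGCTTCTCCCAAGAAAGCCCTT
RPS27A probe 1: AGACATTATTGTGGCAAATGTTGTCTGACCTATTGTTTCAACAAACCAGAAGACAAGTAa
RPS27A probe 2: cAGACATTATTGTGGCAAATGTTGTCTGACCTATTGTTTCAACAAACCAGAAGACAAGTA

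RPS25 has 4 probes, of which 2 were bright and 2 were not well above background on any array. The first bright probe is printed whole. Of the dim pair, 30 bases each are printed, and capitals mark the 20 bases that the end of one shares with the start of the other.

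RPS25 probe 1: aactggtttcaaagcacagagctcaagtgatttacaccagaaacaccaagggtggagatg
RPS25 dim probe 1, last 30 bases: attagattatCACCAAGAAATGTAGGCATG
RPS25 dim probe 2, first 30 bases: CACCAAGAAATGTAGGCATGtctcctaaag

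RPL4 is shown with a probe that the array files under another name, because the pair differs most in brightness among the measured probes of a member gene.

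RPL4 member probe: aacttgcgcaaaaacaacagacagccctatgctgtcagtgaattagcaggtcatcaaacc
RPL4 probe under another name: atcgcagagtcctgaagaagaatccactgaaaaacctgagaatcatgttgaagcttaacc

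All sequences are those of the array design, 60 bases long and read 5′ to 3′. The G and C content of the 15 member probes ran from 35% to 45% with a median of 41.7%, against a median of 43.3% over all 15008 probes. No genome position is used here.

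Of the 15 member probes, 13 were well above background on all 12 arrays and were tested. Their percentiles of brightness among all probes ran from 96.4 to 99.9 with a median of 99.2, and the 15 probes together held 3.17% to 4.31% of all non-control signal on an array. The 2 remaining probes, both for RPS25, ranged from -7.42 to -5.43 and gave no usable level. RPS25 itself is read by its 2 bright probes, so all 8 genes were measured.

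No difference between the groups passed the test in these genes. By limma, 0 of the 13 member probes had an adjusted p under 0.05, beside 0% of all 10734 tested probes. At an unadjusted p under 0.05 the count was again 0 of 13, against 6.82% of all tested probes, and the smallest p among members was 0.167 (adjusted p = 0.779, Benjamini-Hochberg over all tested probes). The group difference, cortisol minus control, ran from -0.02 to 0.23 on the log2 scale, and the 95% intervals of the 13 probes all included 0. Across probes, the intervals reached down to -0.32 and up to 0.57, and no interval held a larger difference in either direction. In no member did the groups separate, while 0.41% of all tested probes had groups that did not overlap.

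By sign, 12 of the 13 probes and 7 of the 8 genes had a higher mean after cortisol, against 46% of all tested probes. The median log2 fold change over the 8 genes, each taken at its brightest probe, was 0.07, and over all tested probes it was -0.02. That lean was not kept without cortisol array 3, which was singled out after its values were seen. Then 3 of 8 genes had a higher mean and 5 a lower one, the median was -0.04, and 46.7% of all tested probes were higher. Bright probes fell too. Of the brightest 1 in 50 tested probes outside the ribosomal protein family, 86 of 184 were higher with that array and 51 without it. Their median was -0.008 with it and -0.08 without it. RPS27A, the gene with a lower mean, turned to a higher one under normexp background correction, under quantile or median scaling and in the authors' deposited log2 table, which made 8 of 8 higher under each of these 4.

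**Figure D1:**
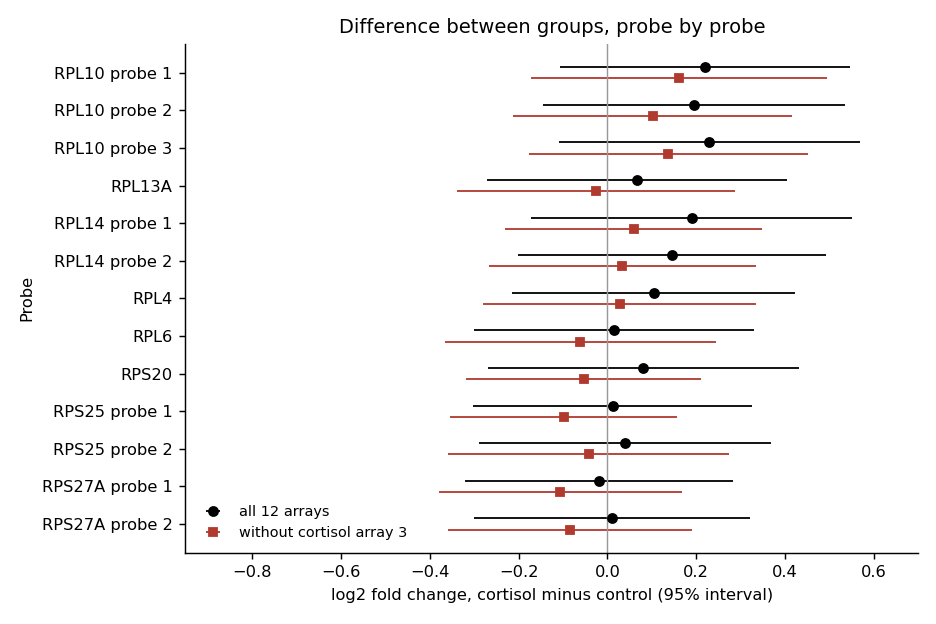
Log2 fold change of the 13 tested member probes, cortisol minus control, with 95% intervals from limma; black circles use all 12 arrays and red squares leave out cortisol array 3. Every interval crosses 0, and with that array left out 6 of 13 estimates are above 0. Cortisol array 3 is the highest of the 12 for all 13 probes, so leaving it out must lower every estimate.

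The arrays fall on 2 slides, each holding both groups, and the direction differed among them. On slide 1, which carries replicates 1 and 2 of each group, the median difference over the 8 genes was -0.12 and 2 of 8 were higher. In the first row of slide 2, with replicates 3 and 4, it was 0.34 and 8 of 8 were higher. In the second row, with replicates 5 and 6, it was -0.01 and 3 of 8 were higher. The brightest 1 in 50 tested probes outside the ribosomal protein family swung the same way. Of these 184 probes, the number higher was 31, 127 and 63 in the same order, with medians of -0.24, 0.26 and -0.09. Over all 10734 tested probes the number higher was 4595, 5220 and 5417, with medians of -0.07, -0.01 and 0.006. Cortisol array 3 is in the first row of slide 2. In that row the median deviation of the 8 genes from their own means over all arrays was 0.47 on cortisol array 3 and -0.17 on cortisol array 4. It was -0.18 on control array 3 and -0.11 on control array 4.

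Among the large subunit genes, RPL10 stood farthest from 0. RPL10 encodes a protein that joins the large subunit last, in the cytoplasm. At its brightest probe the control arrays ranged from 7.34 to 7.66 with a median of 7.42, and the cortisol arrays from 7.16 to 7.99 with a median of 7.70. Of the cortisol arrays, 5 lay above every control and cortisol array 4 lay below every control, so the groups overlapped. The difference was 0.22 (95% interval -0.11 to 0.55, adjusted p = 0.781), or 0.16 without cortisol array 3 and 0.33 without cortisol array 4. The overlapping probes gave 0.19 and 0.23, and on each of them cortisol array 3 was the highest and cortisol array 4 the lowest of 12.

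RPL14 encodes a structural protein of the large subunit. Its brightest probe ranged from 6.56 to 6.97 in controls (median 6.72) and from 6.65 to 7.57 after cortisol (median 6.84). Only cortisol array 3 exceeded the highest control, and the other 5 cortisol arrays ended at 6.93, inside the control range. The difference of 0.19 (-0.17 to 0.55, adjusted p = 0.825) was 0.06 without that array. Its shifted twin gave 0.14, and 0.03 without that array.

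RPL4 encodes a protein whose long loop lines the tunnel through which the new chain leaves the ribosome. The member probe ranged from 3.98 to 4.44 in controls (median 4.24) and from 4.04 to 4.72 after cortisol (median 4.34). Here too cortisol array 3 was the single array above the control range. The difference was 0.10 (-0.21 to 0.42, adjusted p = 0.903), and 0.03 without it. The 2 RPL4 probes under another name were brighter by 2.93 and 3.30 on average, yet gave differences of 0.13 and 0.14. The member probe's difference was within 0.035 of theirs despite the gap in brightness.

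RPL13A takes part in the ribosome and, once released from it, in a complex that represses translation of some inflammatory messages. It is also a common reference gene in quantitative PCR. Controls ranged from 7.36 to 7.88 (median 7.69) and cortisol arrays from 7.41 to 8.17 (median 7.66). The difference was 0.07 (-0.27 to 0.40, adjusted p = 0.948), and -0.03 without cortisol array 3. The ranges lay over each other apart from that array.

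RPL6, another structural protein, was the brightest member. Controls ranged from 8.88 to 9.43 (median 9.35) and cortisol arrays from 9.09 to 9.67 (median 9.24). Control array 4 was the lowest of all and cortisol array 3 the highest. The difference was 0.01 (-0.30 to 0.33, adjusted p = 0.989), or -0.06 without cortisol array 3 and also -0.06 without control array 4.

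Of the 3 small subunit genes, RPS20, a protein of the head of the small subunit, ranged from 8.47 to 8.70 in controls (median 8.54) and from 8.40 to 9.32 after cortisol (median 8.52). Without cortisol array 3 the highest cortisol array was 8.69. The difference was 0.08 (-0.27 to 0.43, adjusted p = 0.939), and -0.05 without that array.

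RPS25 is a small subunit protein that some messages need for initiation at internal entry sites. Probe 1 ranged from 8.22 to 8.40 in controls (median 8.33), the narrowest control range among members, and from 8.10 to 8.87 after cortisol (median 8.25). With cortisol array 3 aside, the cortisol arrays ended at 8.35, below the highest control. The difference was 0.01 (-0.30 to 0.33, adjusted p = 0.992), and -0.10 without it. Probe 2, which shares no long stretch with probe 1, gave 0.04, and -0.04 without it.

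RPS27A is made as a fusion with ubiquitin and so supplies both a ribosomal protein and ubiquitin, the tag of the proteasome system. Probe 1 ranged from 8.59 to 9.0 in controls (median 8.84) and from 8.52 to 9.22 after cortisol (median 8.73). The difference was -0.02 (-0.32 to 0.28, adjusted p = 0.985), and -0.11 without cortisol array 3. Its shifted twin gave 0.01, so the 2 probes of this gene fell on opposite sides of 0 while differing by 0.03.

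Neither subunit had a gene past the threshold. The median difference was 0.10 over the 5 large subunit genes and 0.01 over the 3 small subunit genes, and without cortisol array 3 it was 0.03 and -0.10. Split by brightness, the 4 brighter genes (RPL6, RPS27A, RPS20 and RPS25) had a median of 0.01 and the 4 dimmer ones (RPL13A, RPL10, RPL14 and RPL4) of 0.15. Without that array these were -0.08 and 0.04. The splits overlap, since all 3 small subunit genes are among the brighter 4, so subunit and brightness cannot be told apart in so few genes. The order of the subunits was not kept over the wider family, described below.

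**Figure D2:**
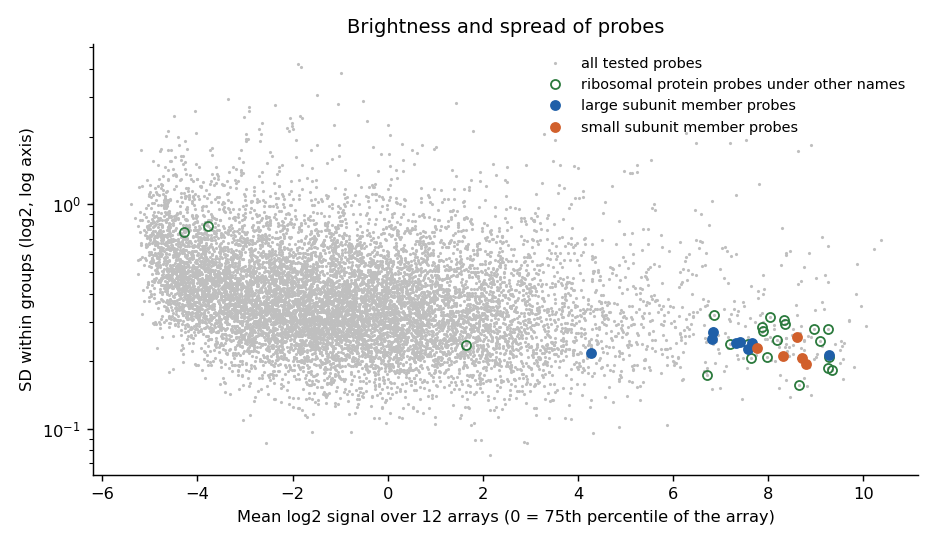
Mean log2 signal over 12 arrays (x) against the standard deviation within groups (y, log axis) for every tested probe, with member probes filled and ribosomal protein probes under other names as open circles. Members sit at the bright end, and their standard deviations run from 0.195 to 0.269.

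The members were steady within groups. The standard deviation within groups had a median of 0.230 over the 13 probes (0.195 to 0.269) and of 0.365 over all tested probes. Among the brightest 1 in 50 tested probes outside the ribosomal protein family, 184 probes, it was 0.279. Leaving out cortisol array 3 took the member median to 0.176, that of the bright class to 0.231 and that of all tested probes to 0.355. Bright probes as a class are steadier than dim ones, and the members' median is given beside the bright class for that reason.

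Repeat probes read the same labelled RNA more than once. In the 5 pairs of member probes that share at least 30 bases, the difference between the 2 probes varied across arrays with a standard deviation of 0.046 to 0.088 beside the 0.195 to 0.269 of the probes themselves. The group differences of such a pair lay within 0.009 to 0.045 of each other. Such probes repeat the reading of an array and not the animal.

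**Figure D3:**
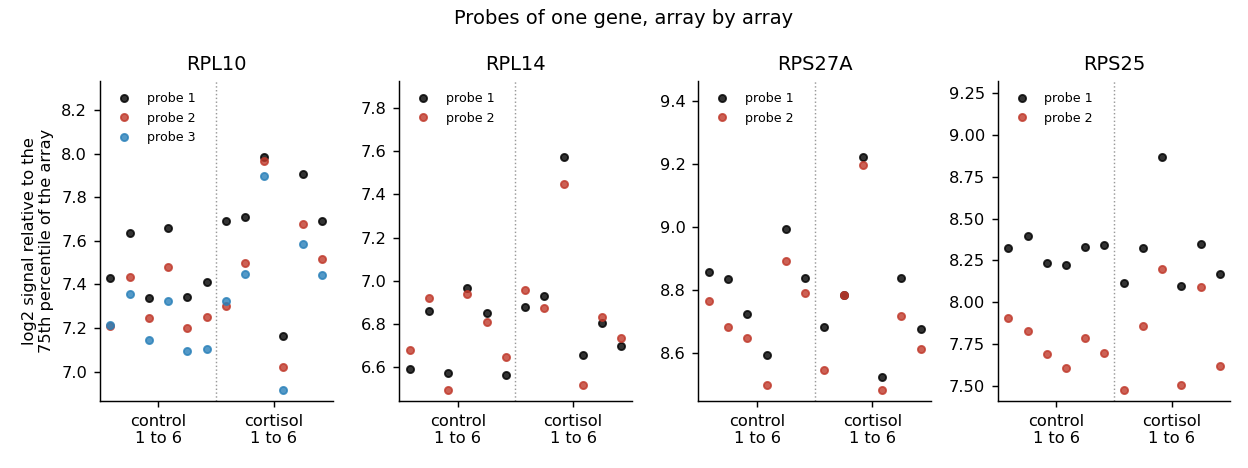
Log2 signal of the repeat probes of RPL10, RPL14, RPS27A and RPS25 on each of the 12 arrays, controls left of the dotted line and cortisol arrays right of it. Probes of a gene move together from array to array, and cortisol array 3 is the highest point of every probe shown.

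The genes also moved together from array to array, in both groups. On control array 2, 12 of 13 probes were above their own 12-array mean, and on control array 3 and cortisol array 4 the count was 0 of 13. Cortisol array 4 was the lowest of the 12 for 6 of 13, against 4.95% of all tested probes. The 6 include overlapping probes of RPL10 and of RPS27A, which repeat a reading. By gene, each at its brightest probe, this array was the lowest for 3 of 8. Among the brightest 1 in 50 outside the family it was the lowest for 22 of 184. Counts on the other controls were 5 to 8. After cortisol they were 5, 11, 13, 0, 11 and 3 for arrays 1 to 6. These counts were not made for other probes of like brightness. The shared movement is therefore not shown to be particular to the members. As values, the median deviation of the 8 genes from their means ran from -0.18 to 0.09 in controls and from -0.17 to 0.08 on the cortisol arrays other than array 3. The group ranges are nearly the same once array 3 is set aside.

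Cortisol array 3 was the highest of the 12 arrays for 13 of 13 member probes, against 11.6% of all tested probes. Among the brightest 1 in 50 outside the family it was the highest for 70 of 184. Its values exceeded the median of the other 5 cortisol arrays by 0.30 to 0.88, with a median of 0.58. Over all tested probes the same difference had a median of -0.03, and over the brightest 1 in 50 outside the family it was 0.22. Member probes made up 4.31% of its signal, compared with 3.23% to 3.67% on control arrays and 3.17% to 3.69% on the other cortisol arrays.

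The size of that gap depended on how arrays were scaled. It was 0.51 with normexp background correction, 0.65 with median scaling and 0.57 with the percentile taken over detected probes, and the array was then highest for 12, 13 and 13 of 13 probes. With quantile scaling it was 0.19, and the array was highest for 7 of 13. In the authors' deposited log2 table it was 0.21, and the array was highest for 5 of 13. The bright probes outside the family had medians of -0.02 and -0.09 under the last 2 processings, and the member median exceeded theirs by 0.21 and 0.30. As scaled here it exceeded theirs by 0.36.

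**Figure D4:**
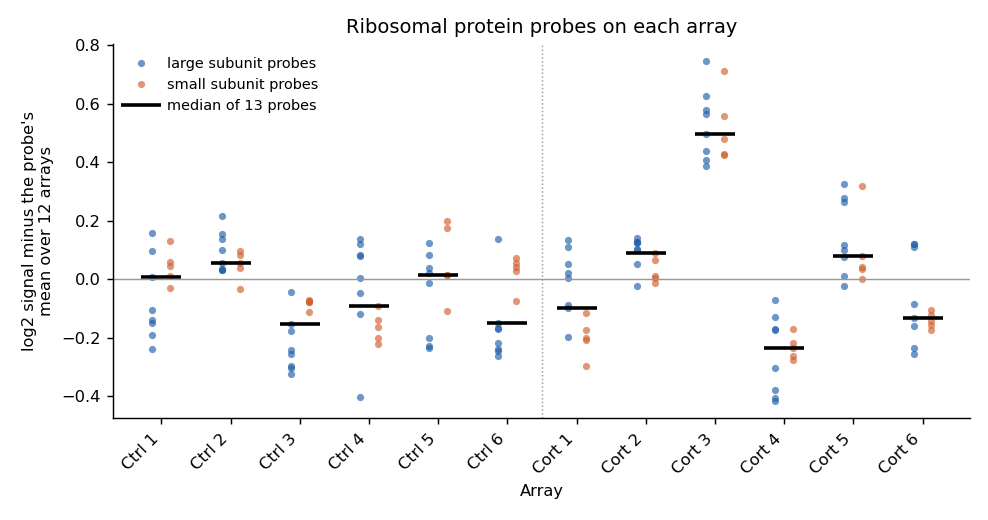
Log2 signal of each of the 13 member probes minus its own mean over 12 arrays, by array; blue points are large subunit probes, orange points small subunit probes, bars the median of the 13. All 13 points of cortisol array 3 lie at 0.385 or above, and no other array has its median above 0.09.

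The general quality measures of cortisol array 3 lay within the range of the other arrays, while its endothelial marker sum and several single markers did not. Its 75th percentile was 264.4 intensity units, 71.7% of its probes were well above background, and it correlated with the mean of its group at 0.974, where the 12 arrays ran from 0.972 to 0.990. The 7 measured skeletal muscle markers summed to 147.3 on this array, 105.9 to 201.3 on the other cortisol arrays and 151.9 to 191.8 on controls. The summed levels of the measured leukocyte, red cell, fibroblast and fat cell markers lay inside the ranges of the other cortisol arrays. The endothelial sum was 6.80, just under the 7.23 to 12.2 of the other cortisol arrays and the 6.90 to 12.3 of controls. The liver sum was 0.136 against 0.241 to 2.23 on the other cortisol arrays and 0.0698 to 132.2 on controls. These are sums of linear signal in units of the 75th percentile. Of the 27 single markers measured, 7 were at their lowest of 12 arrays here: the muscle markers MB (myoglobin) at 2.85 and MYF5 at -5.09, the collagen genes COL1A2 and COL3A1, the endothelial PECAM1 and NOS3, and the liver marker AHSG. Of the same 27, 0 were at their highest here. The share of all tested probes that were lowest on this array was not counted, so 7 of 27 is not shown to be unusual. Whether any of these markers bears on the ribosomal protein signal was not tested.

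**Figure D5:**
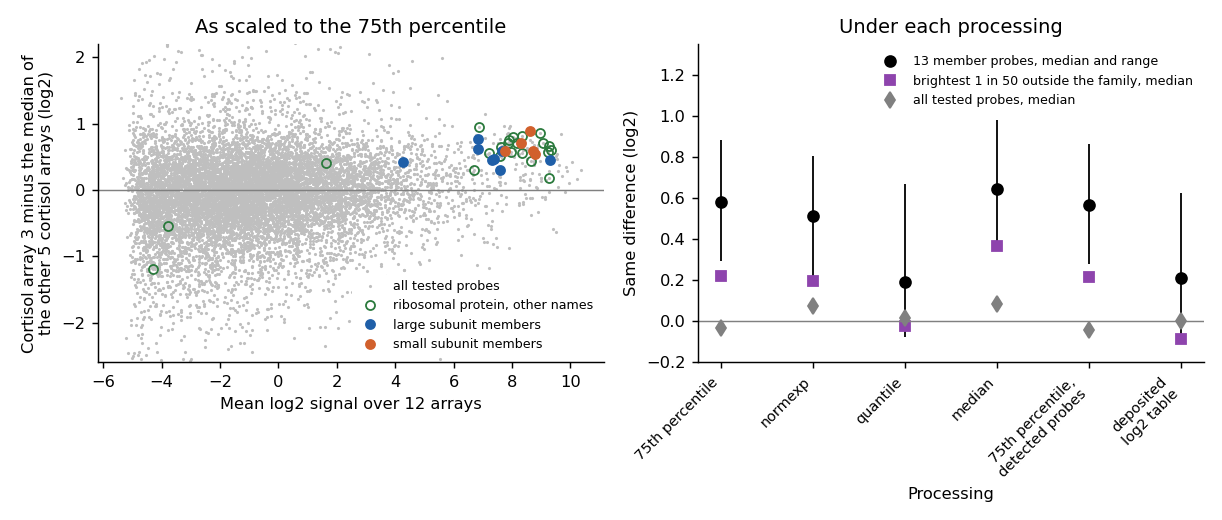
Left, cortisol array 3 minus the median of the other 5 cortisol arrays for each tested probe against mean log2 signal (axis cut at -2.6 and 2.2, so a few probes fall outside); right, the same difference under each processing, as the median and range of the 13 member probes beside the medians of bright probes outside the family and of all tested probes. The member median is 0.58 as scaled here and 0.19 with quantile scaling.

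Of the 23 ribosomal protein probes under other array names, 22 were tested, with 17 higher after cortisol and 14 higher without cortisol array 3. Over all tested probes these shares were 46% and 46.7%. With the members, the whole family then came to 38 probes for 23 genes, of which 35 probes were tested. Over the 23 genes the median difference was 0.09, with 17 higher and 6 lower, and 0.003 without cortisol array 3, with 12 higher and 11 lower. By subunit the median was 0.08 over 10 large subunit genes and 0.09 over 13 small subunit genes. Without that array these were -0.03 and 0.02. In limma 0 of 35 probes passed the adjusted threshold and 1 had an unadjusted p under 0.05, beside 0% and 6.82% of all tested probes. The 1 was the dim RPL32 probe described below. Cortisol array 3 was the highest of 12 for 31 of the 35 probes, beside 11.6% of all tested probes and 70 of the 184 brightest outside the family. The family held 13.1% of that array's signal, against 9.28% to 10.8% on controls and 9.63% to 11.1% on the other cortisol arrays.

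RPS12, a small subunit protein of the beak, had the largest positive difference of the family. At its brightest probe controls ranged from 9.11 to 9.31 (median 9.18) and cortisol arrays from 9.32 to 9.97 (median 9.37). All 6 cortisol arrays lay above all 6 controls, by a narrow margin. The difference was 0.28 (-0.01 to 0.58, adjusted p = 0.744 in limma), and 0.19 without cortisol array 3. The probe that overlaps it gave 0.26 with 5 cortisol arrays above every control, and a separate probe gave 0.16 with 4. RPS12 was thus 1 of 35 family probes with separate groups, beside 0.41% of all tested probes.

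RPL32, a large subunit protein, was read by a dim probe, detected above background on 6 of the controls and 2 of the cortisol arrays. Controls ranged from -4.36 to -2.50 (median -4.00) and cortisol arrays from -5.92 to -3.44 (median -4.76). It passed the filter through the controls, and 4 of the 6 cortisol values were not well above background, so its fitted difference of -1.01 (adjusted p = 0.693) is not a measured fold. It was -0.79 without cortisol array 3 and -0.30 with normexp background correction. On this probe cortisol array 3 was the lowest array rather than the highest. Its intensities were 4.38 to 50.9 units.

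RPS6, the small subunit protein phosphorylated by S6 kinase downstream of mTOR, ranged from 7.76 to 8.64 in controls and from 8.08 to 8.95 after cortisol, with a difference of 0.19 (adjusted p = 0.846) that was 0.08 without cortisol array 3. RPSA, which is both a small subunit protein and a laminin receptor precursor, ranged from 6.53 to 6.98 and from 6.42 to 6.92. Its difference was -0.09 (adjusted p = 0.905) and -0.14 without that array. The groups overlapped for both genes.

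Ribosome-associated genes whose names do not begin with RPL or RPS were looked at from listed sets, of which the array names few. Of the 7 listed ribosomal or ribosome-bound proteins with other names, 2 were measured and 0 passed. RACK1, a scaffold on the small subunit, differed by 0.10, and TPT1, a growth-related protein with a similarly regulated message, by -0.09, which was 0.0081 in the deposited table. Cortisol array 3 was the highest of 12 for both, and without it they were -0.0036 and -0.16.

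Of 46 listed translation factors 7 were measured and 0 passed the threshold, with 4 higher and 3 lower. PABPC1, which binds the poly(A) tail, ranged from 1.85 to 2.16 in controls (median 1.95) and from 2.00 to 3.20 after cortisol (median 2.43). Of the cortisol arrays 5 lay above every control. The difference was 0.56 (0.15 to 0.96, adjusted p = 0.693), and 0.56 without cortisol array 3. EIF3A, a subunit of the factor that readies the small subunit, differed by 0.38 and EEF1A1, which delivers tRNA to the ribosome, by 0.32 (0.19 without cortisol array 3). PABPC1 and EIF3A each had 2 measured probes and EEF1A1 had 3, and only the brightest of each gene is given.

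Of 40 listed ribosome biogenesis genes 3 were measured, 2 of them higher and 0 past the threshold. MYC, a transcription factor that drives ribosome production, ranged from 1.45 to 2.22 in controls (median 1.80) and from 1.83 to 3.85 after cortisol (median 2.77), and 4 cortisol arrays lay above every control. Its difference was 1.01 (0.34 to 1.68, adjusted p = 0.693), or 0.87 without cortisol array 3. By slide it was 0.35 on slide 1 and 1.34 on slide 2. MYC had 2 measured probes, and only the brighter is given. DKC1, which modifies ribosomal RNA, differed by 0.43 and RAN, which carries subunits out of the nucleus, by -0.01. The sign for RAN turned with normexp, with quantile or median scaling and in the deposited table.

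In the growth control list 3 of 26 genes were measured, and MTOR, the kinase that couples nutrients to translation of ribosomal protein messages, differed by 0.07, ATF4, a stress-response factor, by 0.07 and AKT1, a growth-factor kinase, by -0.10. The only mitochondrial ribosomal protein listed and measured, MRPL32, differed by -0.41 (adjusted p = 0.721), and -0.43 without cortisol array 3. No gene of these 5 lists passed the adjusted threshold, where 0% of all tested probes did.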

How the data were processed

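Fetal muscle RNA was labelled with Cy3 and hybridised to 12 arrays of a 1-colour Agilent design, 500 ng each, per the labels. The submitters' processing notes name Agilent Feature Extraction 10.1.1.1. The deposited scanner files hold spot intensity, which per the file headers is background-subtracted and detrended within an array and not scaled between arrays. Other values, per the file headers, are flags of 0 or 1 per spot and a number of saturated pixels. A deposited series table gives log2 values with nearly equal distributions on the 12 arrays. Which tool normalized it was not given in the sources used here. Within an array it ranks probes as background-subtracted median signal does (Spearman correlation 1).

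The log2 of each spot was taken, spots of the same probe were averaged without outlier-flagged spots, and each array's 75th percentile over 15008 probes was subtracted. Groups were compared with limma 3.58.1 under R 4.3.3 (functions lmFit and eBayes, two-sided, without covariates, Benjamini-Hochberg over 10734 probes), and the fit was tested on simulated data. Other steps used Python 3.11.15. A gene was read at the probe brightest over all 12 arrays. Names came from the array and from the RefSeq table of sheep genes, with 9 probes named by hand. In all, 1603 of 15008 probes got a name.

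The members and lists were chosen with earlier results of these data known. Cortisol arrays 3 and 4 were singled out for description after their values were seen. As no member passed the threshold, the genes named are up to 6 member genes per direction, a set of ribosomal and translation genes listed by name, and up to 3 measured genes per list by smallest p. A listed gene is not reported here. Replicate numbers are shared by the groups, but deviations of same-numbered arrays correlated from -0.11 to 0.25, so they were not treated as pairs. A search of promoters was not run, as no promoter sequence is used here. Alternatives covered background correction, scaling, filters, slide, row and replicate as blocks, the deposited values and leaving out each array. Adding the family probes under other names was chosen after seeing the data.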

Additional observations from a re-analysis of the deposited data

Results flagged for a closer look

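Values are log2 signals relative to the array's 75th percentile, compared with the other 5 arrays of the same group. Listed here are values that lie farther from their nearest neighbour, as a share of the group's range, than Dixon's 95% critical value for 6 samples. Chance flags about 1 in 20 groups. Among all tested probes, 7.80% of control groups and 5.97% of cortisol groups held such a value. Of 58 values examined, 8 passed the limit.

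Of these, 5 belong to cortisol array 3. RPL14 was 7.574 there against 6.655 to 6.93 on the other cortisol arrays, RPS25 was 8.871 against 8.095 to 8.349, RPS20 was 9.317 against 8.398 to 8.686, and RPS12 was 9.966 against 9.323 to 9.526. The median deviation of the 3 small subunit genes from their 12-array means was 0.5567 on that array and -0.2187 to 0.04163 on the others. These values share a single array and are not independent of each other.

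The remaining 3 belong to different arrays. RPL10 was 7.162 on cortisol array 4, below the 7.691 to 7.986 of the others. RPL6 was 8.884 on control array 4, below the 9.244 to 9.426 of the others. AKT1 was 1.28 on control array 6, above the 0.4816 to 0.6222 of the others.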

How the results depend on the processing

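The count of member probes past the threshold was 0 under every alternative, and over all tested probes it was 0 in 25 of 26 and 1 on slide 1 alone. On slide 1 alone 2 member genes were higher and their median was -0.12. There 31 of the 184 brightest probes outside the family were higher, with a median of -0.24. Adding the family probes under other names, an alternative chosen after seeing the data, gave 17 higher genes of 23. Leaving out each array in turn gave 3 to 8 higher genes and a median of -0.04 to 0.12, for large subunit genes 0.03 to 0.16, small subunit genes -0.10 to 0.06, brighter genes -0.08 to 0.05 and dimmer genes 0.04 to 0.19. With the replicate number as a block the median stayed at 0.07. It could not move, since each replicate number holds a control array and a cortisol array. Blocks of slide, or of slide and row, also hold the groups in equal number and could not move it either. No call changed with the replicate block. Of 24 named genes 12 kept 1 sign in all alternatives run. RPS27A became 0.034 with normexp, 0.011 with quantile scaling, 0.0018 with median scaling, 0.035 in the deposited table and 0.028 on slide 2. RAN became 0.016, 0.050, 0.0074 and 0.073 under the same first 4, and 0.41 on slide 1. TPT1 became 0.0081 in the deposited table and 0.0039 on slide 2. On slide 1 alone RPL4 was -0.084, RPS25 -0.14, RPL13A -0.13, RPS20 -0.14, RPL6 -0.18, RACK1 -0.13, AKT1 0.20 and ATF4 -0.38. Without 1 array, RPS25 ran from -0.098 to 0.057, RPL13A from -0.026 to 0.12, RPS27A from -0.11 to 0.034, RPS20 from -0.053 to 0.13, RPL6 from -0.065 to 0.056, RACK1 from -0.0036 to 0.14, TPT1 from -0.16 to 0.0071, RAN from -0.15 to 0.087, AKT1 from -0.22 to 0.057, MTOR from -0.012 to 0.15 and ATF4 from -0.065 to 0.27. The cause of these reversals was not tested. Precision is limited by the 6 arrays per group: a member probe's difference had a median standard error of 0.15.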
